A study of Mus musculus with 6 samples.

Results

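Hmgcs1, Sqle, Idi1, Lss, Fdft1, Fdps, Insig1 and Cyp51 encode 7 enzymes of cholesterol synthesis and 1 sterol sensor. They were examined in sorted cells of tumors grown from carcinoma cells with and without RANK. The 8 genes were chosen by name as genes of this pathway, with earlier results of these data known. All 8 were measured, out of 22503 genes or unnamed transcripts that passed the filter on dim probes. RNA came from sorted CD45- cells, the fraction without the leukocyte surface protein CD45. These cells were taken from tumors that grew after orthotopic transplantation of MMTV-PyMT carcinoma cells into syngeneic C57BL/6 hosts. MMTV-PyMT is a transgene that drives the polyomavirus middle T oncogene from a mammary promoter, and both groups carried it. The donor cells were RANK-/- in one group and RANK+/+ in the other, and the hosts of both groups were C57BL/6. The study describes the CD45- fraction as enriched in tumor cells, so RNA of host cells may be part of both channels. Tnfrsf11a encodes RANK, a receptor that activates NF-kB. Each 2-color array held 1 RNA of each genotype. There were 3 pairs of RNAs, and each pair was hybridized to 2 technical replicate arrays, named A and B, giving 6 arrays. Whether the RNAs of 1 genotype came from separate tumors or from pools is not stated in the labels, so the tests measure the spread between these RNAs, which may be technical in part. Per the methods of the study, hosts of such transplants were females 6 to 10 weeks old.

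Cells build cholesterol from acetyl-CoA through mevalonate, farnesyl diphosphate, squalene and lanosterol. The genes of this route are switched on together by SREBP2, a membrane-bound transcription factor that is released from the endoplasmic reticulum when sterols are low. INSIG proteins hold the SREBP escort protein SCAP back when sterols are high, and the same low-sterol state raises the uptake of cholesterol from outside. In tumors the pathway supplies membranes for dividing cells and isoprenoid anchors for small GTPases.

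The ratios below are log2 of the channel labeled RANK-/- over the channel labeled RANK+/+, so that a negative value is a lower signal under the RANK-/- label. The labels were first set against the targeted gene. Tnfrsf11a gave a clear signal in both channels of every array, and the signal was higher under the RANK-/- label. Its ratio was 2.03 in pair 1, 1.15 in pair 2 and 1.76 in pair 3 (mean 1.65 ± 0.45, SD, n = 3). Its limma adjusted p was 1.00 on the averaged pairs and 0.0195 with the 6 arrays fitted singly and pair as a random block. The second fit takes technical arrays A and B as separate values, with 1 correlation within pairs (0.962) for all genes. Its smaller p therefore does not rest on more pairs. Which part of the gene the RANK-/- allele lacks is not given in the sources used here, so this probe cannot settle the labels, and every direction below is that of the labels. Cy5 marked the RANK-/- RNA of pair 1 and the RANK+/+ RNAs of the other pairs, so that dye and pair 1 cannot be told apart. Dye swaps are described in the study's methods, but by the labels both arrays of each pair used the same dyes, so that their average removes no dye effect if the labels are right. The number of pairs, and not that of arrays, limits the precision. The share of gene probes called well above background was 51.9% to 58.8% over the 12 channels. Luminal keratins Krt8 and Krt18 and the epithelial adhesion gene Epcam passed that mark under both labels on all 6 arrays. Ptprc, which encodes CD45, was well above background in the RANK-/- channel of 5 arrays and the RANK+/+ channel of 4.

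The regulatory sequence of these genes is shown first, because SREBP acts through it. Promoters were read from RefSeq (mouse assembly GRCm38.p6) as 250 bases before and 50 after the transcription start. They were searched on both strands for TCACNCCAC, a common form of the sterol regulatory element, and for CCAAT, the box bound by NF-Y, which works beside SREBP on many of these genes. The motifs do not overlap in the matches found. An entry existed for 5 of the 8 genes, Hmgcs1, Idi1, Insig1, Lss and Cyp51. CCAAT or its reverse complement was present in all 5 of these promoters, against 12289 of the 32851 mouse promoters in the table (37.4%). Of the other 14 enzymes of the route, 12 had an entry, with 15 promoters between them. Of these 12 genes, 11 held the box in at least 1 promoter, which is a count of genes and not of promoters. TCACNCCAC was present in 1 of the 5 promoters, that of Hmgcs1, against 408 of all promoters (1.24%). It was present in none (0) of the other 12 enzymes with an entry. Other forms of the element were not searched, so a promoter without this match may still hold one. The 250 bases before the start are printed for 4 genes, as the gene with both motifs, the gene with the lowest mean ratio, and 2 genes of neighboring steps whose ratios parted in pair 3. Capitals mark the matches, and each sequence runs 5′ to 3′ on the strand of the gene.
Hmgcs1, chr13:119690101-119690350, plus strand: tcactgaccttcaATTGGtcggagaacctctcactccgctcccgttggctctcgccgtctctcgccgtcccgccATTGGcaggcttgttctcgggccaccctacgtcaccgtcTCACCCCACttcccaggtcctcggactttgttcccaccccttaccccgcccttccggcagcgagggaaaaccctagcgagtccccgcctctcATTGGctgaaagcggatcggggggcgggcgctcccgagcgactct
Idi1, chr13:8885356-8885605, plus strand: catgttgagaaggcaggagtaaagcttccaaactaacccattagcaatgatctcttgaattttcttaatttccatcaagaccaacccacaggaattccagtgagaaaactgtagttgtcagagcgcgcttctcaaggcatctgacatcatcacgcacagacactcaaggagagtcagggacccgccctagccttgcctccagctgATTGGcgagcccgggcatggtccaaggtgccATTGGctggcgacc
Lss, chr10:76531355-76531604, plus strand: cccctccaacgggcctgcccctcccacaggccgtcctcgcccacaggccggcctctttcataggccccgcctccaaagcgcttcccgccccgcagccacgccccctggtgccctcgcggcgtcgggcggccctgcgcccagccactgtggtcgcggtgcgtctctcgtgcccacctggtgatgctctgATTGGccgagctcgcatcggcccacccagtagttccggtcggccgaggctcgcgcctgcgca
Cyp51, chr5:4104698-4104947, minus strand: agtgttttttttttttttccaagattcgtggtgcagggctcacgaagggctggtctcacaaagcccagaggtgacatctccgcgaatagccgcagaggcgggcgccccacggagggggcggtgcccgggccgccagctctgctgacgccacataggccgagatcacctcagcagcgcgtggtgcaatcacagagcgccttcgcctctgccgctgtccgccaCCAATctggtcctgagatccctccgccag
The element of Hmgcs1 spans bases -137 to -129 from the start. Both Hmgcs1 and Idi1 hold a box at bases -45 to -41, while that of Lss lies at -62 to -58 and that of Cyp51 at -29 to -25. The box of Insig1 lies further up, at -216 to -212. A match is a description of the letters and not a bound site.

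None of the 8 genes passed the test for a difference between the genotypes across the 3 pairs. By limma, 0 of the 8 passed an adjusted p of 0.05, and all had an adjusted p of 1.00. The background was 0 of all 22503 genes (0%), with 647 genes at an unadjusted p under 0.05, none (0) of which was one of the 8. A rank product test called 19 genes in either direction (0.0844%) and none (0) of the 8. The mean ratios ran from -0.50 for Idi1 to 0.14 for Fdps, and their median was -0.20, against 0.00 over all genes. No gene of the 8 (0) had the same sign in all 3 pairs, against 4411 of all genes (19.6%). No gene of the 8 (0) had 3 RANK-/- channels that lay apart from the 3 RANK+/+ channels, against 1678 of all genes (7.46%). The intervals still allow sizeable changes, and the values of each gene are therefore given by pair.

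**Figure D1:**
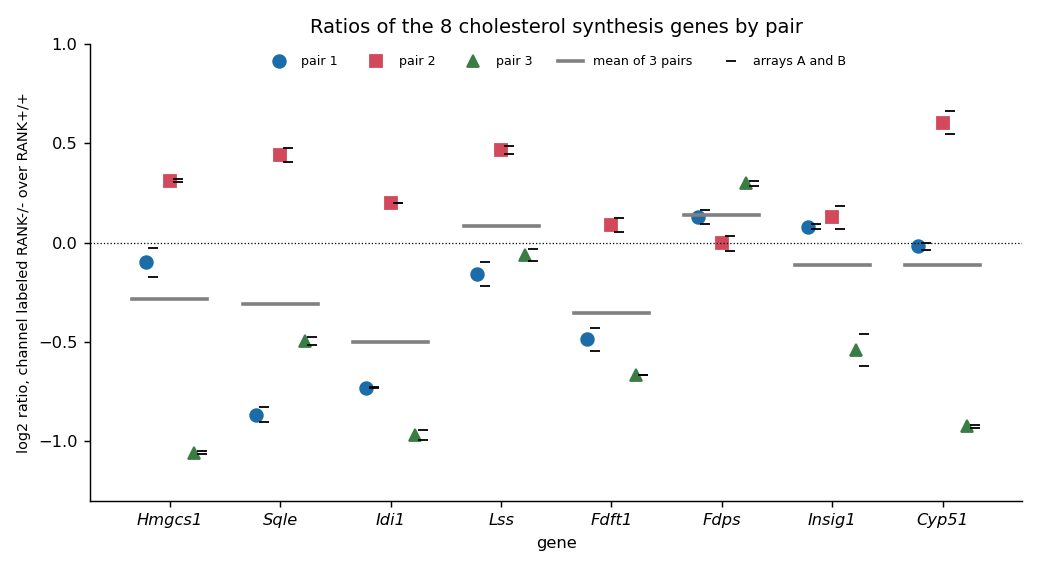
Log2 ratio of the channel labeled RANK-/- over the channel labeled RANK+/+ (vertical axis) for the 8 genes (horizontal axis). Colored points are the 3 pairs, black ticks arrays A and B of each pair, and gray lines the mean of the 3 pairs. Pair 2 lies above 0 for 7 of the 8 genes and pair 3 below 0 for 7, with Fdps as the exception to both.

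Hmgcs1 encodes HMG-CoA synthase, an early enzyme of the mevalonate route. Its ratios were -0.10 in pair 1, 0.31 in pair 2 and -1.06 in pair 3. The mean was -0.28 ± 0.70 (SD, n = 3), with a 95% limma interval of -1.11 to 0.55. The negative mean rested on pair 3, and the mean of the other pairs was 0.11. In the single channels its log2 signal was 12.78, 12.43 and 11.84 under the RANK-/- label of pairs 1, 2 and 3 and 12.88, 12.11 and 12.90 under the RANK+/+ label. The RANK-/- RNA of pair 3 was thus the lowest of the 6, and the RANK+/+ RNA of pair 2 the next.

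Idi1 and Fdps act next among the 8. Idi1 isomerizes isopentenyl diphosphate, and Fdps joins the isoprenoid units to farnesyl diphosphate, from which both sterols and protein prenyl groups are made. Idi1 had the lowest mean of the 8, with ratios of -0.73, 0.20 and -0.97 and a mean of -0.50 ± 0.62 (SD, n = 3; 95% interval -1.247 to 0.25). Its signal was nearly level in the 3 RANK-/- channels, at 11.34, 11.39 and 11.18. It spread more in the RANK+/+ channels, at 12.07, 11.19 and 12.15. The change of sign in pair 2 therefore went with a low RANK+/+ RNA in that pair. Fdps ran the other way, with ratios of 0.13, -0.00 and 0.30, a mean of 0.14 ± 0.15 (SD, n = 3) and a 95% interval of -0.26 to 0.54. Its signal was 13.38, 12.60 and 13.28 in the RANK-/- channels and 13.25, 12.60 and 12.98 in the RANK+/+ channels, so that both RNAs of pair 2 were low.

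Fdft1 and Sqle commit farnesyl diphosphate to sterols. Fdft1 is squalene synthase, and Sqle is squalene epoxidase, a second slow step of the route. Fdft1 had ratios of -0.49, 0.09 and -0.67, with a mean of -0.35 ± 0.40 (SD, n = 3; 95% interval -0.91 to 0.20). Sqle had ratios of -0.87, 0.44 and -0.50, with a mean of -0.31 ± 0.67 (SD, n = 3; 95% interval -1.11 to 0.49). Sqle and Lss were the genes with their lowest ratio in pair 1. The Sqle signal was 11.97, 12.36 and 12.33 in the RANK-/- channels and 12.84, 11.92 and 12.83 in the RANK+/+ channels. As for Idi1, the RANK+/+ RNAs of pairs 1 and 3 were the highest of the 6. That of pair 2 was the lowest for Sqle.

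Lss and Cyp51 stand on either side of lanosterol. Lss closes the rings of oxidosqualene to lanosterol, and Cyp51 removes the first methyl group from it. Lss had ratios of -0.16, 0.46 and -0.06, with a mean of 0.08 ± 0.34 (SD, n = 3; 95% interval -0.43 to 0.59). Its signal in the channels was set more by pair than by label, at 9.72, 9.19 and 8.93 under RANK-/- and 9.88, 8.73 and 8.995 under RANK+/+. Cyp51 had the widest range of the 8, from 0.60 in pair 2 to -0.93 in pair 3, with -0.02 in pair 1. The mean was -0.11 ± 0.77 (SD, n = 3; 95% interval -1.01 to 0.78), and its highest and lowest pair ratios lay 2.88-fold apart.

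Insig1, the sterol sensor that is itself an SREBP target, had ratios of 0.08, 0.13 and -0.54. The mean was -0.11 ± 0.37 (SD, n = 3; 95% interval -0.65 to 0.43). Its signal was 8.92, 8.65 and 8.52 under RANK-/- and 8.84, 8.52 and 9.06 under RANK+/+. As for Cyp51, its highest RNA was the RANK+/+ RNA of pair 3.

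**Figure D2:**
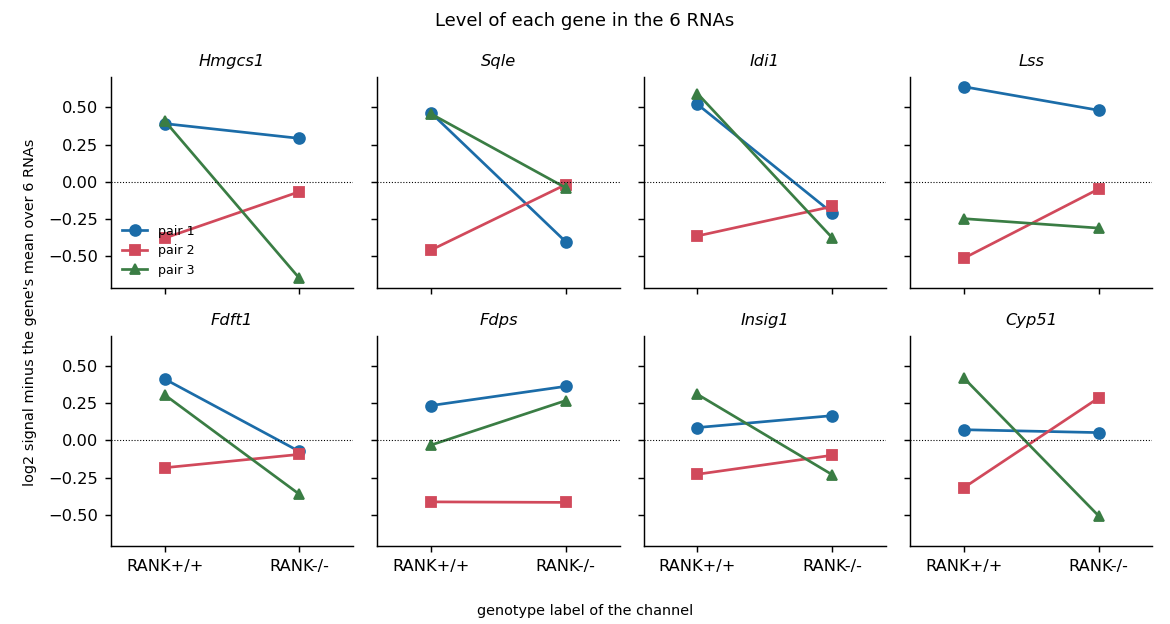
Normalized log2 signal of each of the 8 genes in the 6 RNAs, minus the mean of that gene over the 6 (vertical axis), by genotype label of the channel (horizontal axis). Lines join the RNAs of a pair. The lines of pair 2 slope up for 7 genes and those of pair 3 slope down for 7, and the RANK+/+ RNA of pair 2 lies below the gene's mean in all 8 panels.

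The pairs differed from each other by more than technical replicates did. In a limma fit on the 6 single arrays with pair as the factor, 8 of 8 genes passed an adjusted p of 0.05, against 88.4% of all genes, so the share says little about these genes. The error in this fit is that of arrays A and B alone, and it speaks of these RNAs and not of the genotypes. The largest adjusted p was that of Fdps (0.00296), whose highest and lowest pair ratios lay 1.23-fold apart. The median SD between technical arrays was 0.06 over all genes and that between pairs 0.33. Across all genes the ratios of pairs 1 and 2 had a Pearson r of -0.28, those of pairs 1 and 3 of 0.18 and those of pairs 2 and 3 of -0.08, which is a description across genes that are not independent.

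Within single pairs, and against the same technical error, most or all of the genes called among the 8 had the same direction. That direction was down in pairs 1 and 3 and up in pair 2. In pair 1, 4 of 8 were lower under RANK-/- (34.6% of all genes) and 1 was higher (37.9% of all genes). The lower genes were Sqle, Idi1, Fdft1 and Lss, and the higher one was Fdps. In pair 2, none (0) of 8 was lower (35.2% of all genes) and 6 were higher (32.8% of all genes), namely Cyp51, Lss, Sqle, Hmgcs1, Idi1 and Insig1. In pair 3, 6 of 8 were lower (37.2% of all genes) and 1 was higher (37.3% of all genes). Hmgcs1, Idi1, Cyp51, Fdft1, Insig1 and Sqle made up the 6, and Fdps was again the higher one. The order down, up, down over pairs 1, 2 and 3 was shown by 6 of 8 genes, against 3819 of the 22503 genes. Since the 8 genes were chosen with earlier results of these data known, this share is a description and was not tested. Within pairs the medians of the 8 were -0.13, 0.25 and -0.60, against 0.02, -0.01 and 0.00 over all genes. These directions rest on the intensity loess. With median centering in its place, all genes had medians of 0.13, -0.19 and -0.39 in the pairs, and the 8 genes 0.09, -0.04 and -1.23, so that the order held in 1 of the 8 genes. Set against the median of all genes under that scaling, the 8 were still lower in pair 3 and higher in pair 2, and nearly level in pair 1.

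The 8 genes were partly alike over the 6 RNAs. Pearson r between 2 of them ran from -0.16 to 0.96 over the 28 combinations, with a median of 0.56. Each rests on 6 RNAs, of which the 2 of a pair share their arrays. Against the mean of the other 7, r was 0.90 for Hmgcs1 and for Fdft1, 0.86 for Idi1 and for Insig1, 0.66 for Sqle and for Cyp51, 0.58 for Lss and 0.28 for Fdps. The mean profile of the 8, centered on each gene, was 0.08, -0.08 and -0.28 in the RANK-/- RNAs of pairs 1, 2 and 3 and 0.35, -0.36 and 0.28 in the RANK+/+ RNAs. The RNAs labeled RANK+/+ thus held both the highest and the lowest level of the group. Among the 22495 other genes, those most like this profile were the small RNA silencing gene Ago2 (r = 0.998), the unnamed transcript AK051017 (0.997), Gm4907 (0.987) and Fam162a (0.985). Gart of purine synthesis (0.984), the microtubule regulator Stmn1 (0.983), the unnamed transcript NAP114371-1 (0.982) and the Polycomb gene Cbx2 (0.975) came next. The unnamed transcripts AK084507 (0.974) and AK030082 (0.973) followed. All of these were picked as the highest of 22495 correlations, each over 6 RNAs, and such an order holds high values by chance too. Whether these genes exceed chance was not tested. Of the pathway genes outside the 8, the lipoprotein receptor gene Lrp8 stood at rank 86 (r = 0.93), the lipogenic Thrsp at rank 213 (0.89), Msmo1 at rank 285 (0.87) and Mvd at rank 337 (0.86). Others stood near the middle, such as Pmvk at rank 10952 (-0.02) and Dhcr7 at rank 11310 (-0.04). Ebp at rank 19130 (-0.55), Srebf1 at rank 21703 (-0.80) and Me1 at rank 22235 (-0.89) stood toward the end. Among genes of dividing cells, Plk1 stood at rank 115 (0.91), Mcm2 at rank 377 (0.85) and Pcna at rank 6265 (0.30).

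The rest of the synthesis route was described from a list of 14 further enzymes, all of them tested. None (0) passed the adjusted threshold in either direction, and 1 had an unadjusted p under 0.05. Their medians were -0.06, 0.12 and -0.49 in the 3 pairs, the same order as that of the 8, and 7 of 14 went down, up, down. Pmvk, the second kinase of mevalonate, had the highest mean of the list, with 1.27, -0.00 and 0.85 in the pairs and 0.71 ± 0.65 (SD, n = 3). Tm7sf2, a sterol reductase, had the lowest mean and was the 1 gene of the list with the same sign in all pairs, at -0.69, -0.40 and -0.35. Its mean was -0.48 ± 0.18 (SD, n = 3), with an unadjusted p of 0.0314 and an adjusted p of 1.00 by limma. A set of 19 enzymes from Acat2 to Dhcr7 included the 7 of the group. Of these 19, 14 lay below 0 in pair 1, 13 above 0 in pair 2 and 16 below 0 in pair 3. Of all 22503 genes, 10807, 10873 and 11217 did so. Of the 14 further enzymes alone, 9, 9 and 12 did.

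**Figure D3:**
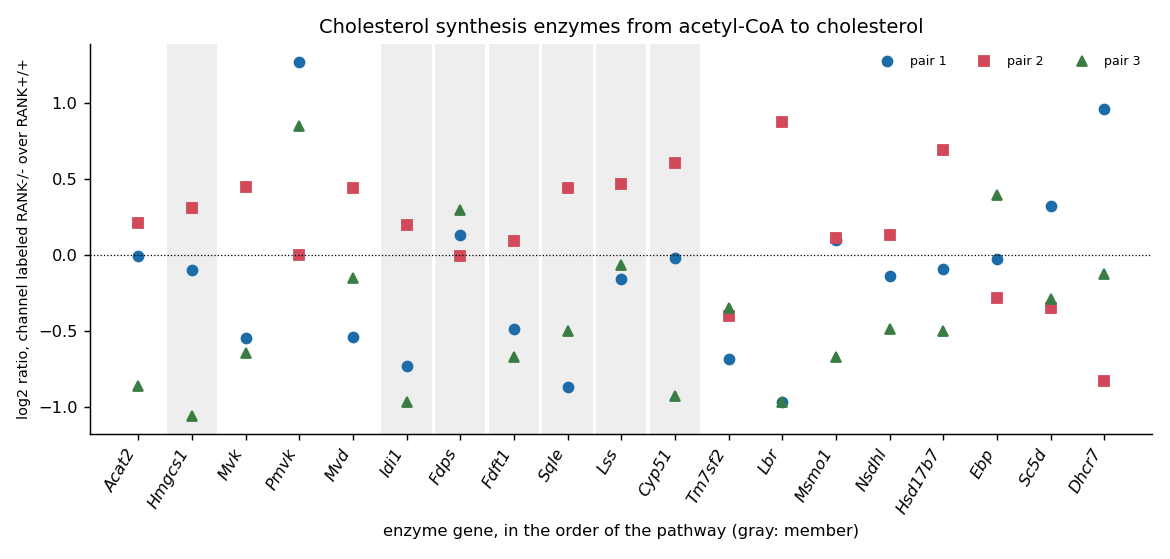
Log2 ratio of the channel labeled RANK-/- over the channel labeled RANK+/+ (vertical axis) for 19 enzyme genes in the order of the pathway (horizontal axis), with the 7 enzymes of the chosen group on gray. Points are the 3 pairs. In pair 3, 16 of the 19 lie below 0, and Pmvk, Fdps and Ebp lie above it.

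Of 11 genes of SREBP control, which regulates the route, none (0) passed the adjusted threshold and none (0) had an unadjusted p under 0.05. None (0) went down, up, down, an order that 17.0% of all genes had, so that little can be read from this count. Srebf1, which encodes the SREBP that favors fatty acid genes, had the highest mean of the list, with ratios of 1.68, -0.61 and 0.80 (0.62 ± 1.16, SD, n = 3). These signs were opposite to those of Idi1 in every pair, and Epcam had them too. Srebf2, which encodes the SREBP that favors the cholesterol route, had ratios of 0.24, 0.33 and -0.18 (0.13 ± 0.27, SD, n = 3). The escort protein gene Scap had -0.33, 0.32 and 0.06, and Insig2 had 0.62, -0.00 and 0.15. Mbtps2, a protease that frees SREBP, had the lowest mean of the list, at -0.35 ± 0.36 (SD, n = 3). In the list of 13 genes of uptake and lysosomal release 12 were tested, and none (0) passed. Lrp1 had the highest mean of this list (0.51 ± 0.60, SD, n = 3). The sterol carrier gene Stard4 had the lowest, with -0.38, 0.11 and -1.36 in the pairs and a mean of -0.54 ± 0.75 (SD, n = 3).

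The medians of the branches away from cholesterol showed other orders, although some of their genes went down, up, down. That order was shown by 2 of 9 isoprenoid genes and 1 of 10 tested genes of efflux, storage and oxysterols. It was shown by 4 of 11 genes of fatty acid synthesis, against 17.0% of all genes. Of 9 genes of the isoprenoid branch, none (0) passed, and the medians were -0.07, -0.11 and 0.15. Dhdds had the highest mean of that list (0.33 ± 0.57, SD, n = 3) and Nus1 the lowest (-0.38 ± 0.63, SD, n = 3), although both proteins form 1 enzyme that makes dolichol. Of 12 genes of efflux, storage and oxysterols 10 were tested, none (0) passed, and the medians were -0.06, -0.02 and 0.65. The cholesterol exporter gene Abca1 had ratios of 0.66, -1.06 and 0.96, opposite in sign to Sqle in every pair. Epcam and the luminal marker Muc1 had the same signs as Abca1, so these signs are not particular to it. Cyp7b1 had the highest mean of the list (0.63 ± 1.11, SD, n = 3) and Ch25h, which makes an oxysterol that blocks SREBP release, the lowest (-0.37 ± 0.75, SD, n = 3). Of 11 genes of fatty acid synthesis, none (0) passed, and the medians were -0.13, 0.23 and 0.37. Scd1 had the highest mean (0.68 ± 1.53, SD, n = 3) and Fads1 the lowest (-0.67 ± 1.02, SD, n = 3). Fasn, fatty acid synthase, was the 1 gene of that list with an unadjusted p under 0.05. It is named for that and was higher in all 3 pairs, by 0.53, 0.42 and 0.37, with a limma adjusted p of 1.00.

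**Figure D4:**
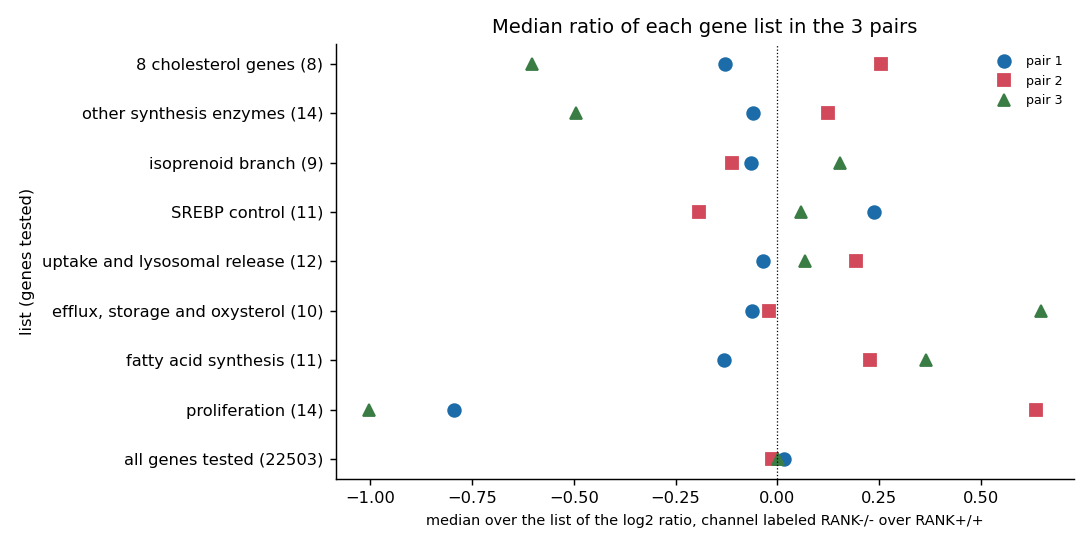
Median over the genes of each list of the log2 ratio of the channel labeled RANK-/- over the channel labeled RANK+/+ (horizontal axis), with the lists and their number of tested genes on the vertical axis and the 3 pairs as points. The 8 genes, the other synthesis enzymes and the proliferation genes lie below 0 in pairs 1 and 3 and above 0 in pair 2.

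Genes of proliferating cells had the same order over the pairs. Of 15 listed genes 14 were tested (Aurkb did not pass the filter), none (0) passed limma, and 13 of 14 went down, up, down. Their medians were -0.79, 0.63 and -1.002, and Mki67, the gene of the Ki-67 antigen, had -0.82, 0.75 and -0.97. The summed linear signal of the list ran from 34650 to 66910 over the RANK-/- RNAs and from 40560 to 68290 over the RANK+/+ RNAs, so that the ranges overlapped. The sum over the 8 cholesterol genes ran from 22360 to 27360 and from 19180 to 32590. The part of proliferation in the ratios of the 8 genes was not tested. In such RNA fewer cells of a type and less RNA per cell cannot be told apart. The medians of 10 luminal markers, 0.38, -0.78 and 1.11, were opposite in sign to those of the 8 genes. Krt8, Krt19, Cdh1 and Esr1 were the markers of this list that did not go up, down, up. None (0) went down, up, down, against 17.0% of all genes, so that little can be read from this count. Basal myoepithelial markers had medians of 0.04, 0.00 and -0.07 over 8 genes, none (0) of which passed limma, and 2 of 8 went down, up, down. Their summed signal was 28530 to 33310 in the RANK-/- RNAs and 37190 to 53600 in the RANK+/+ RNAs, ranges that did not overlap. The keratins Krt5, Krt14 and Krt17 had the lowest means of this list (-1.07, -0.71 and -1.23). Myh11 and Cnn1 had means of -0.32 each. Oxtr, Acta2 and Trp63 had positive means (0.89, 0.30 and 0.14), so the sum does not speak for every marker of the list. Fibroblast markers had medians of 0.13, 0.57 and 1.88, and endothelial markers 0.01, -0.18 and 0.53. Leukocyte markers had medians of -0.28, 0.07 and 0.03 over 9 tested genes of 12, and their summed signal was 33310 in the RANK+/+ RNA of pair 1 against 9123 to 12090 in the other 5 RNAs. The neutrophil genes S100a8 and S100a9 carried that difference, since the other 7 summed to 9362 in that RNA and to between 7688 and 10604 in the other 5. Of 9 adipocyte markers 4 were tested, with medians of 0.25, -0.19 and 0.57. Fabp4, Lipe and Pnpla2 were above background under both labels on all 6 arrays and Cfd on 6 and 4, while Adipoq, Plin1, Lep and Cidec were above it on no array (0) and Retn on 2 under RANK+/+. The B cell marker Cd79a was above background on no array (0). The part of these cell types in the ratios was not tested.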

How the data were processed

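Two-color arrays compared sorted CD45- cells of tumors labeled RANK-/- and RANK+/+. The authors scanned the arrays and extracted them with Agilent Feature Extraction 10.7.3.1 (submitters' processing notes), and the deposited scanner tables hold spot and background intensity in both channels, not normalized, with Feature Extraction's processed intensity and flags beside them. The deposited series table holds log2 ratios normalized by the authors and was used only as an alternative. Its direction, not stated, was RANK-/- over RANK+/+ by its rank correlation with the scanner ratios of each array (rho 0.738 to 0.83), and its column medians were -0.008 to 0.00404. All columns were matched to a sample.

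Median signals were corrected with normexp (offset 50), normalized by intensity loess and Aquantile (limma 3.58.1, R 4.3.3, data.table version 1.17.8), turned to RANK-/- over RANK+/+ and averaged over arrays A and B, giving n = 3. There were 3671 control spots per array and 212 to 260 outlier gene spots, all removed, and no saturated spot (0). Channel levels are the mean log2 intensity plus or minus a part of the ratio. The filter on dim probes required, for one of the genotypes, a signal well above background on arrays A and B of 2 or more pairs, and kept 30231 of 55681 gene probes (54.3%). Of these gene probes, 28026 were matched to a RefSeq symbol by accession, and the brightest kept probe stood for a gene. The 8 genes had 10 probes, of which 8 were kept. The second probes of Hmgcs1 and Fdft1 were too dim. Tests used limma (lmFit, then eBayes, two-sided, with its 95% intervals, Benjamini-Hochberg over all 22503 genes, threshold 0.05), and a rank product was run with its proportion of false positives (pfp) under 0.05. The fits on single arrays covered 22441 genes with a value on all 6. With 3 pairs an exact two-sided sign-flip test gives no p below 0.25. The limma and rank product code was tested on simulated data. Promoters came from a RefSeq table of GRCm38.p6, while the array grid names mm9. The scripts ran in Python 3.11.15 with matplotlib 3.10.9.

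The 8 genes and the lists were chosen with earlier results of these data known. Besides the 8, the text names Tnfrsf11a, the control points Srebf1, Srebf2, Scap, Insig2 and Abca1, the genes of highest and lowest mean in each list, and the 10 genes most like the mean profile with the ranks of pathway genes. Fasn, Mki67 and the markers were named after their values were seen. Some genes of these lists are not reported here by name. Alternatives concerned background, normalization, filter, probes, technical arrays, pairing, dye, direction, variance model and pairs left out.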

Additional observations from a re-analysis of the deposited data

How the results depend on the processing

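Under each of the 20 limma settings and the rank product, none (0) of the 8 genes was called. The count over all genes moved from 0 to 13 with the 6 arrays fitted singly and pair as a random block, and to 19 by rank product. The median of the 8 means was -0.20, kept its sign in all settings but one, and ran from -0.52 to 0.08 when 1 pair was left out. With 1 pair left out, the mean of Hmgcs1 ran from -0.58 to 0.11, that of Insig1 from -0.23 to 0.10 and that of Cyp51 from -0.47 to 0.29, each positive only without pair 3, and that of Lss from -0.11 (without pair 2) to 0.20. The mean of Sqle ran from -0.68 (without pair 2) to -0.03 (without pair 1), that of Idi1 from -0.85 (without pair 2) to -0.27 (without pair 3), that of Fdft1 from -0.58 (without pair 2) to -0.20 (without pair 3) and that of Fdps from 0.06 (without pair 3) to 0.21 (without pair 2). Without pair 2, Sqle, Idi1 and Fdft1 had an unadjusted p under 0.05 by limma, with a smallest adjusted p of 0.55 among the 8. Median centering in place of loess turned Lss (-0.087) and Fdps (-0.14) and shifted the median of all genes by -0.14, and turning the sign of pair 1 turned Sqle (0.27). The causes were not tested.

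With the channels taken as separate samples, so with no replicate block, none (0) of the 8 was called. The deviations of the channels that shared a number had a correlation of -0.03, -0.22 and -0.04 across genes. Channels with different numbers were not compared, so whether the RNAs of a pair shared more than their arrays was not tested. The number of genes of the 8 that differed between pairs was 7 or 8 under every processing setting. Under the random block, which takes technical arrays as separate values, Tnfrsf11a had a limma adjusted p of 0.0195, against 1.00 on averaged pairs. The signs of the 24 pair ratios of the 8 genes held in 22 to 24 under the other processing settings and in 16 with median centering.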
